A study of Homo sapiens with 21 samples.

Results

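This comparison set FADU cells that overexpressed the lncRNA RP11-390F4.3 directly against FADU cells that overexpressed METTL4, to find the genes and programs that separate the lncRNA from the methyltransferase. It used 4 of the 21 RNA-seq libraries of the series, 2 for each group. The 2 libraries of the control-vector cells entered the fit and are given beside most values. A gene entered when 2 or more of these 6 libraries reached a value of 1, which left 15644 of the 18316 genes in the table. FADU is a human squamous carcinoma line of the hypopharynx, and all 3 groups grew in DMEM with 10% FBS and were kept in normoxia, 18% O2 in the labels, for 18 h. The METTL4 cells were stable transfectants that carried a Flag-tagged human METTL4 cDNA in pcDNA3. The RP11-390F4.3 cells carried the synthesized lncRNA in pcDNA3.1(+), and the control cells were transfected with the control vector. Both inserts were driven from plasmids rather than from the native loci, and how many clones stand behind each group is not given in the sources used here.

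METTL4 is a member of the MT-A70 family of adenine methyltransferases, enzymes that place a methyl group on the N6 position of adenine in DNA or RNA. RP11-390F4.3 is a long non-coding RNA, a transcript that is not translated and that can act in the nucleus, and the study placed both genes in the response of tumour cells to low oxygen. In that response the subunit HIF-1α is stabilised and induces genes of glycolysis, of blood vessel growth and of epithelial-mesenchymal transition (EMT), the loss of cell-cell adhesion by epithelial cells.

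The values are CPM, read counts scaled to the library total, and the authors further scaled them between libraries with the TMM method. They are not corrected for gene length, so they compare libraries and not genes. Differences are given on the log2(value + 1) scale as RP11-390F4.3 minus METTL4, and this scale understates the change of genes with low values. A gene was called at a difference of 1.3-fold or more with a Benjamini-Hochberg adjusted p under 0.05 by limma, over all genes tested. The 6 libraries held between 20257044 and 25410656 reads on genes, the most in the RP11-390F4.3 cells. Replicates correlated at 0.996 to 0.998 across genes, which are not independent replicates, and RP11-390F4.3 with METTL4 libraries at 0.974 to 0.979. The labels do not say that the libraries of a group came from separate cultures, so the p-values measure the spread between these libraries, which may be technical. In bulk RNA, fewer cells of a type and less RNA per cell cannot be told apart.

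The overexpressed genes were read first. METTL4 (ENSG00000101574, chr18:2537524-2571508 on the minus strand of GRCh37) had values of 158 and 139 in METTL4 cells, 30.0 and 28.9 in RP11-390F4.3 cells and 35.4 and 32.7 in control cells. Its group means were 148 ± 13.4 in METTL4 cells and 29.5 ± 0.796 in RP11-390F4.3 cells (SD, n = 2), a ratio of 5.02 and a log2 difference of -2.29 ± 0.07 (SE, adjusted p = 1.86e-11 by limma). METTL4 was high in the METTL4 libraries alone.

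The lncRNA gave a smaller contrast. RP11-390F4.3 (ENSG00000225489, chr9:6716157-6727438 on the plus strand of GRCh37) had values of 23.9 and 25.1 in RP11-390F4.3 cells, 21.8 and 21.7 in METTL4 cells and 12.9 and 13.4 in control cells. It was above control in both groups, by 0.85 on the log2 scale in RP11-390F4.3 cells (adjusted p = 7.11e-07, limma) and by 0.68 in METTL4 cells (adjusted p = 8.62e-06, limma). The direct difference of 0.16 ± 0.08 did not pass the test (adjusted p = 0.0827, limma), and its 2 libraries in RP11-390F4.3 cells lay above the 2 in METTL4 cells. By the rule used here, METTL4 separated the groups and the lncRNA did not.

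The gene was placed in the genome by a primer pair that the study lists for this locus, shown because the table names genes by identifier. Each primer matched GRCh37 once. The forward primer lies at chr9:6715941-6715960 on the plus strand, upstream of the annotated start, and the reverse primer at chr9:6716266-6716289 on the minus strand, inside the gene as annotated here. The study used the pair to genotype a promoter site that it places upstream of its own transcription start, so that start differs from the annotated one.
RP11-390F4.3 F: cgggtgccacacaatgagga
RP11-390F4.3 WT R: ttcctgccccctaaagcctcggaa

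The exons of RP11-390F4.3 cover 3177 bases in the GENCODE annotation, of which 135 (4.25%) also belong to exons of KDM4C (ENSG00000107077, chr9:6720863-7175648, plus strand), a histone demethylase gene, and reads there may be assigned to neither gene. KDM4C itself had values of 131 and 129 in RP11-390F4.3 cells, 111 and 117 in METTL4 cells and 100.4 and 104 in control cells, a direct log2 difference of 0.19, which was under 1.3-fold. Its part in the lncRNA's values was not tested.

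**Figure D1:**
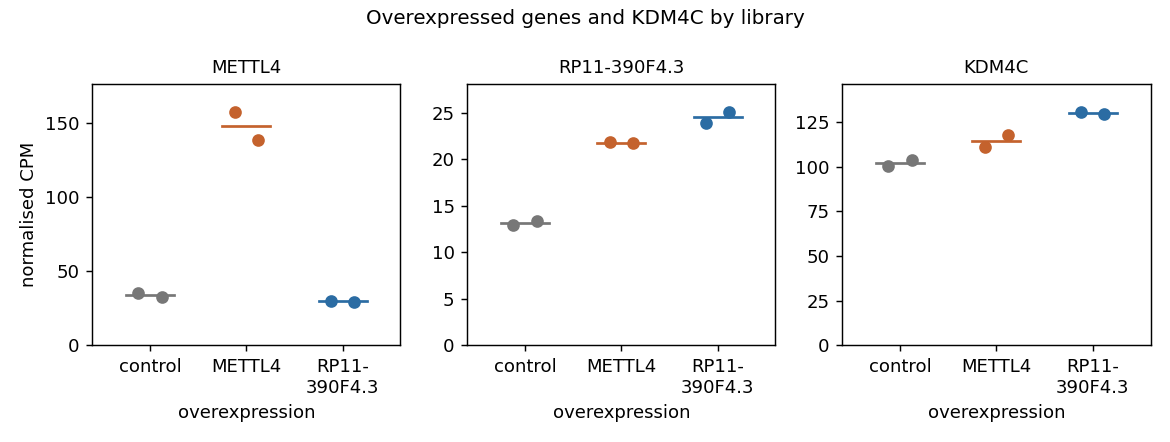
Normalised CPM of METTL4, RP11-390F4.3 and KDM4C in each of the 6 libraries, with points for the 2 libraries of each group and lines for their mean, each panel on its own linear axis from 0. METTL4 stands apart in its own cells, whereas RP11-390F4.3 lies at 21.7 to 25.1 in both overexpression groups and at 12.9 and 13.4 in control cells.

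Across the transcriptome, 2876 genes were higher in RP11-390F4.3 cells (18.4% of genes tested) and 2074 were higher in METTL4 cells (13.3%), so that 31.6% of genes separated the groups by this rule. At an unadjusted p under 0.05 the counts were 2938 (18.8%) and 2133 (13.6%), or 32.4% of genes. Where a gene list below had no call in a direction, it had none at an unadjusted p under 0.05 and none by edgeR's quasi-likelihood test either. At 2-fold or more, 572 genes were higher in RP11-390F4.3 cells and 103 in METTL4 cells. The median difference over all genes was -0.00034, and for 77.9% of all genes both libraries of one group lay above both of the other. The side with more calls depended on the scaling. With each library centred on its own median, 2276 genes were higher in RP11-390F4.3 cells and 2992 in METTL4 cells, which puts 43.2% of calls on the RP11-390F4.3 side against 58.1% without centring, and the median difference over all genes was then -0.084. Against control, by the same rule, RP11-390F4.3 cells had 2584 genes higher (16.5%) and 1955 lower (12.5%), and METTL4 cells had 1251 higher (8.0%) and 1643 lower (10.5%). These comparisons share the control libraries, and control values are given below side by side.

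One library stood apart in a small group of genes. In replicate 2 of the RP11-390F4.3 cells, genes of luminal breast cells were high, with GREB1 at 26.9 against 2.94 in replicate 1 and at most 1.303 in the other 4 libraries. GATA3 was at 16.5 against 2.98 in replicate 1, IGFBP5 at 13.5 against 0.0805 and SYTL2 at 22.9 against 1.57. Of the 15 breast or luminal markers listed, 8 were in the table and 6 were tested, and their summed level was 923 in this library and from 893 to 1276 in the others, a sum carried by KRT18. ESR1 was between 2.86 and 5.18 in all 6 libraries, with the highest value in this library and 2.86 in replicate 1. CA12 was at 5.23 against 0.644 in replicate 1 and AGR2 at 2.91 against 0.362, and neither passed the filter on low values. In this library FOXA1 (36.1) and XBP1 (65.2) were above replicate 1 (29.7 and 50.1), and KRT18 (765) was below it (809). GATA3 lost its call without this library (adjusted p = 0.0591, limma), and the counts without it were 2573 and 1827. Of 10 fibroblast markers 1 was in the table (COL1A1, at most 5.91), of 10 immune markers 1 (CD14, at most 4.39) and of 10 hepatic or intestinal markers none, while COL1A1 and CD14 were called higher in RP11-390F4.3 cells. Of 5 neural markers tested 2 were higher in METTL4 cells (CDH2 and NCAM1), and of 6 urothelial markers 3 were higher in RP11-390F4.3 cells (PPARG, UPK3B and UPK2) and 1 in METTL4 cells (KRT7). All 12 squamous markers were above 18 in every library, 9 of them were higher in RP11-390F4.3 cells, and KRT5 was at 1671 and 1506 in RP11-390F4.3 cells, 2052 and 1978 in METTL4 cells and 2728 and 2661 in control cells. The part of these markers in other results was not tested, and without replicate 2 the main lists below kept their direction, with 21 of 29 hypoxia response, 41 of 43 interferon-stimulated, 20 of 25 immediate early and 19 of 24 cholesterol genes higher in RP11-390F4.3 cells and 20 of 34 DNA replication genes higher in METTL4 cells.

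The gene with the largest difference was FOS, which encodes a subunit of the AP-1 transcription factor. Its values were 553 and 571 in RP11-390F4.3 cells, 13.4 and 12.6 in METTL4 cells and 29.4 and 24.3 in control cells. Both RP11-390F4.3 libraries were far above all others and METTL4 cells were below control. The log2 difference was 5.33 ± 0.07 (adjusted p = 1.06e-14, limma), a ratio of means of 43.3. FOSB, a second FOS family member, had 123 and 135 in RP11-390F4.3 cells, 3.73 and 4.71 in METTL4 cells and 5.44 and 4.98 in control cells, a difference of 4.65 ± 0.10 (adjusted p = 1.37e-12, limma).

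The 15 genes with the largest differences towards RP11-390F4.3 cells showed 3 patterns when the control cells were read beside them, grouped here after their values were seen. In the first, the RP11-390F4.3 libraries rose far above both other groups. ANGPTL4, a secreted inhibitor of lipoprotein lipase, had 58.5 and 60.4 in RP11-390F4.3 cells, 7.505 and 5.94 in METTL4 cells and 2.58 and 1.67 in control cells (2.98 ± 0.14, adjusted p = 1.13e-09, limma). SLC2A3, the glucose transporter GLUT3, had 134 and 131 in RP11-390F4.3 cells, 17.2 and 17.7 in METTL4 cells and 6.73 and 7.54 in control cells, a ratio of 7.59 between the overexpression groups. Both were already above control in METTL4 cells. SEMA6A, a transmembrane semaphorin, had 13.7 and 11.99 in RP11-390F4.3 cells, 1.04 and 0.861 in METTL4 cells and 1.62 and 1.54 in control cells. NR4A1, an immediate early nuclear receptor, had 52.6 and 61.0 in RP11-390F4.3 cells, 8.35 and 8.52 in METTL4 cells and 13.98 and 13.96 in control cells.

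In the second, the METTL4 libraries lay far below control while RP11-390F4.3 cells were nearer to it. SCD, the stearoyl-CoA desaturase, had 126 and 130.1 in METTL4 cells, 804 and 820.1 in RP11-390F4.3 cells and 906 and 953 in control cells, a direct difference of 2.65 ± 0.04 (adjusted p = 7.16e-14, limma). SERPINB13, a serpin of squamous epithelium, had 3.68 and 4.26 in METTL4 cells, 29.6 and 30.3 in RP11-390F4.3 cells and 46.1 and 41.5 in control cells. In the third pattern, which also holds IFI27, IFI6 and IFI44L, the groups lay on opposite sides of control. C3, the central complement component, was below control in METTL4 cells (1.79 and 1.54) and above it in RP11-390F4.3 cells (34.2 and 36.4, control 15.7 and 17.6), and differed by 3.77 ± 0.10 (adjusted p = 1.11e-11, limma). CP, which encodes ceruloplasmin, the copper-carrying ferroxidase, had 0.398 and 0.634 in METTL4 cells, 17.4 and 18.5 in RP11-390F4.3 cells and 11.5 and 13.4 in control cells. TNFSF9, the ligand of the receptor 4-1BB, had 2.44 and 1.72 in METTL4 cells, 24.0 and 25.02 in RP11-390F4.3 cells and 7.16 and 6.84 in control cells. VAMP7, a vesicle SNARE, had 0.596 and 1.72 in METTL4 cells, 13.4 and 15.8 in RP11-390F4.3 cells and 4.63 and 6.10 in control cells, and it lies in a region with a copy on X and on Y, so its reads can be split.

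Towards METTL4 cells, differences were smaller. CPA4, a secreted carboxypeptidase, led with 30.6 and 29.5 in METTL4 cells, 5.64 and 3.98 in RP11-390F4.3 cells and 14.7 and 14.98 in control cells, a difference of -2.43 ± 0.12 (adjusted p = 1.85e-09, limma). Its control values lay between the 2 groups, as did those of THBS1, ANO1 and COL12A1. THBS1, the matrix protein thrombospondin 1, had 235 and 234 in METTL4 cells, 83.9 and 78.2 in RP11-390F4.3 cells and 124 and 124 in control cells. COL12A1, a fibril-associated collagen, had 269 and 279 in METTL4 cells, 97.7 and 85.4 in RP11-390F4.3 cells and 163 and 151 in control cells. ANO1, a calcium-activated chloride channel, had 300.3 and 295 in METTL4 cells, 108 and 93.5 in RP11-390F4.3 cells and 168 and 147 in control cells. For another set RP11-390F4.3 cells were near control and METTL4 cells were high. ADAM12, a membrane metalloprotease, had 18.3 and 17.7 in METTL4 cells, 5.07 and 3.77 in RP11-390F4.3 cells and 3.20 and 3.35 in control cells. KCNMA1, the pore subunit of the BK potassium channel, had 19.1 and 21.5 in METTL4 cells, 3.91 and 3.26 in RP11-390F4.3 cells and 5.10 and 4.09 in control cells. DPF3, a subunit of BAF chromatin remodelling complexes, had 14.7 and 15.8 in METTL4 cells, 4.15 and 3.77 in RP11-390F4.3 cells and 3.05 and 4.98 in control cells.

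Some of these genes were raised in both groups but more by METTL4. IL1RL1, the receptor of interleukin 33, had 52.1 and 47.7 in METTL4 cells, 15.1 and 13.02 in RP11-390F4.3 cells and 2.86 and 3.49 in control cells. IL24, a cytokine of the interleukin 10 family, had 31.1 and 28.6 in METTL4 cells, 10.1 and 9.51 in RP11-390F4.3 cells and 2.003 and 2.56 in control cells. APLN, the peptide ligand of the apelin receptor, had 10.6 and 11.96 in METTL4 cells, 2.74 and 2.57 in RP11-390F4.3 cells and 1.53 and 1.26 in control cells. RIPOR3 differed from all of these, with METTL4 cells (15.3 and 15.5) near control (16.03 and 19.9) and RP11-390F4.3 cells at 4.67 and 4.54. PDLIM2, ADAMTS17 and SLC8A1 differed by -1.53, -1.51 and -1.50, and METTL4 itself is the remaining 1 of the 15 genes.

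**Figure D2:**
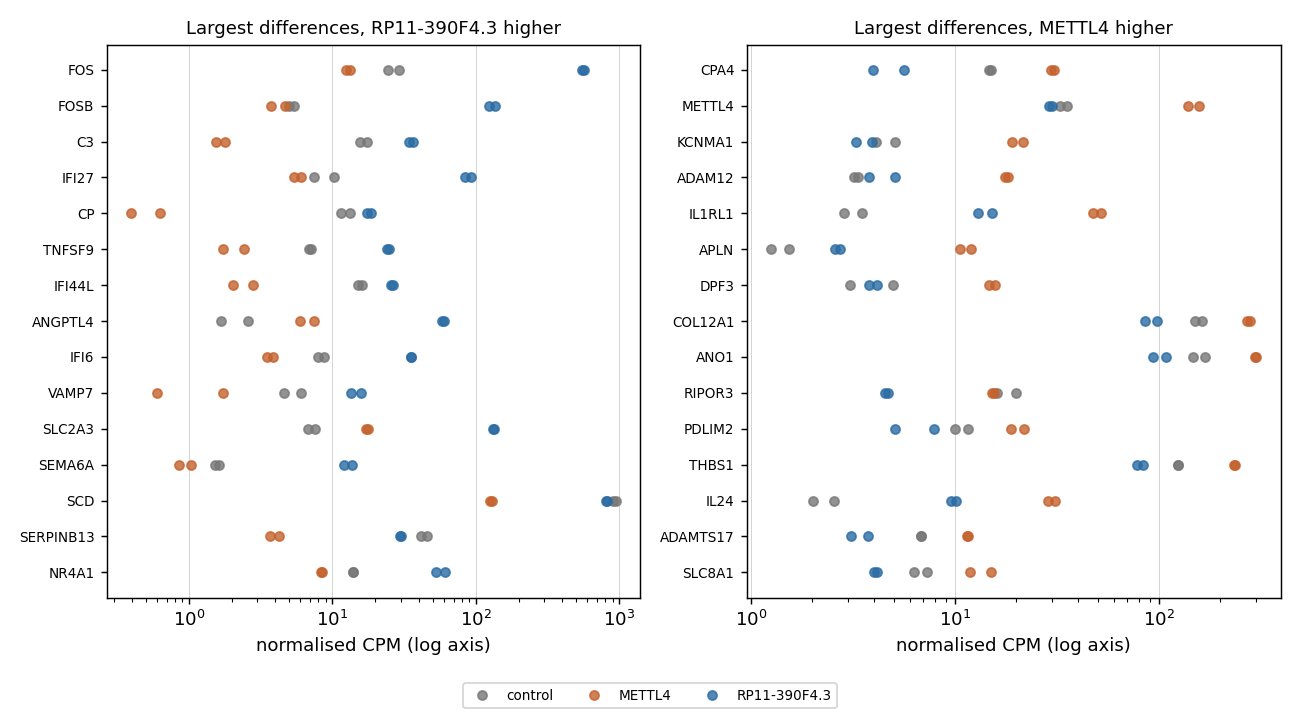
Normalised CPM on a log axis for the 15 genes with the largest log2 differences in each direction that were called, had a mean of at least 5 and did not overlap. Each gene has 2 points for control, METTL4 and RP11-390F4.3 cells, and the control points lie near METTL4 cells for FOSB, near RP11-390F4.3 cells for SCD and between the groups for THBS1.

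Hypoxia response genes were higher in RP11-390F4.3 cells, although all cells were in normoxia. Of the 29 listed genes tested, 21 were higher in RP11-390F4.3 cells and 1 was higher in METTL4 cells, and their median difference was 0.51. With libraries centred on their median, 16 of 29 were higher. NDRG1, a gene long used as a hypoxia marker, had 2052 and 2079 in RP11-390F4.3 cells, 667 and 642 in METTL4 cells and 119 and 101 in control cells, a direct difference of 1.66 ± 0.06 (adjusted p = 1.59e-10, limma). The 3 groups formed a step, with METTL4 cells above control and RP11-390F4.3 cells above both. EGLN3, a prolyl hydroxylase that marks HIF-α for degradation and is itself HIF-induced, followed the same order with 156 and 147 in RP11-390F4.3 cells, 71.0 and 74.7 in METTL4 cells and 19.2 and 17.0 in control cells.

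Other hypoxia genes rose in RP11-390F4.3 cells alone. MXI1, a MAX-binding repressor, had 44.3 and 43.7 in RP11-390F4.3 cells, 11.1 and 9.88 in METTL4 cells and 10.8 and 10.3 in control cells (1.97 ± 0.08, adjusted p = 4.70e-10, limma). BHLHE40, a basic helix-loop-helix repressor, had 647 and 641 in RP11-390F4.3 cells, 192 and 179 in METTL4 cells and 175 and 158 in control cells, and differed from control by 0.16 in METTL4 cells. The exception was STC2, a secreted glycoprotein, with 172 and 172 in METTL4 cells, 122 and 128 in RP11-390F4.3 cells and 87.9 and 76.5 in control cells, a difference of -0.45. Against control, 28 of 29 genes were higher in RP11-390F4.3 cells and 22 in METTL4 cells, with median differences of 1.53 and 0.95, and none was lower in either.

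The same genes were read in separate FADU libraries, transfected with the control siRNA Scr-si and kept at 1% O2 or in normoxia for 18 h. The list was made of genes known to respond to hypoxia, so their rise in those libraries is no separate support. There 27 of 29 hypoxia response genes rose under hypoxia and 1 fell (VEGFA, a log2 difference of -0.41), with a median of 1.85, while 9.73% of all genes tested in that table rose and 9.65% fell. NDRG1 rose by 4.303, EGLN3 by 3.70 and ANGPTL4 by 2.96 on the log2 scale. RP11-390F4.3 itself had 12.01 and 12.3 in normoxia and 31.7 and 31.3 under hypoxia, and the values of 23.9 and 25.1 in RP11-390F4.3 cells come from a table normalised separately.

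Glycolysis genes separated less. Only 6 of the 20 enzymes and transporters tested were higher in RP11-390F4.3 cells and none in METTL4 cells, with a median of 0.25. After SLC2A3 the largest differences were in PFKFB4 (28.4 and 33.7 against 9.05 and 8.97, control 6.44 and 7.12), a kinase that sets the level of the glycolytic activator fructose 2,6-bisphosphate, in the neuronal enolase ENO2 (95.1 and 101 against 33.2 and 34.2, control 16.2 and 14.98) and in the aldolase ALDOC (107 and 105 against 42.0 and 44.4, control 33.4 and 36.0). Against control, 19 of 20 rose in RP11-390F4.3 cells and 15 in METTL4 cells.

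Among the HIF subunits and oxygen sensors, 4 of 12 were higher in RP11-390F4.3 cells: EGLN3, HIF1A, ARNT and ZMIZ1. HIF1A, the oxygen-regulated subunit HIF-1α, had 235 and 226 in RP11-390F4.3 cells, 176 and 167 in METTL4 cells and 213 and 185 in control cells, a difference of 0.42 ± 0.06 (adjusted p = 4.85e-05, limma). ARNT, its partner HIF-1β, had 55.4 and 67.2 in RP11-390F4.3 cells, 45.1 and 44.5 in METTL4 cells and 52.1 and 48.9 in control cells, and lost its call without replicate 2 of the RP11-390F4.3 cells. ZMIZ1, a PIAS-like transcriptional co-activator, had 102 and 111 in RP11-390F4.3 cells, 77.0 and 73.0 in METTL4 cells and 73.6 and 73.3 in control cells (0.50 ± 0.05, adjusted p = 4.72e-06, limma). The METTL4 and control libraries overlapped for ZMIZ1. With libraries centred on their median, HIF1A and ARNT were under 1.3-fold, and the list had 2 genes called in each direction.

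Immediate early genes, which growth factors and stress switch on without new protein synthesis, gave the highest median of the 38 gene lists, 1.26. Of the 25 tested, 20 were higher in RP11-390F4.3 cells and 1 was higher in METTL4 cells. DUSP4 joined the latter without replicate 2 of the METTL4 cells and with libraries centred on their median, which made 2. Against control, 25 of the 25 were higher in RP11-390F4.3 cells (median 1.45). In METTL4 cells 12 were higher than control and 4 lower (median 0.36). After FOS and FOSB came EGR1, a zinc-finger factor, with 389.6 and 401 in RP11-390F4.3 cells, 79.6 and 75.6 in METTL4 cells and 194 and 142 in control cells (2.34 ± 0.10, adjusted p = 4.39e-10, limma). EGR1 was above control in one group and below it in the other. EGR2, of the same family, had 4.95 and 5.53 in RP11-390F4.3 cells, 0.547 and 0.816 in METTL4 cells and 0.859 and 0.744 in control cells. The exception was FOSL1, which encodes the FOS family member FRA-1, with 259 and 228 in METTL4 cells, 118 and 124 in RP11-390F4.3 cells and 78.3 and 64.6 in control cells (-1.001 ± 0.08, adjusted p = 1.81e-07, limma). In the separate hypoxia libraries 16 of 25 were lower under hypoxia and 4 higher, and the log2 differences of FOS and EGR1 were -1.20 and -2.59.

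Interferon-stimulated genes, the antiviral genes that interferon signalling switches on, had the highest share of calls among the 38 lists: 40 of 43 were higher in RP11-390F4.3 cells, none was higher in METTL4 cells, and the median difference was 1.13. The remaining 3, EPSTI1, IRF1 and STAT2, differed by 0.35, 0.27 and 0.24. IFI27, a mitochondrial protein that responds strongly to type I interferon, had 83.7 and 92.3 in RP11-390F4.3 cells, 5.42 and 6.03 in METTL4 cells and 7.44 and 10.2 in control cells (3.73 ± 0.12, adjusted p = 3.36e-11, limma). IFI6, an inhibitor of apoptosis and of flavivirus replication, had 35.3 and 35.6 in RP11-390F4.3 cells, 3.88 and 3.49 in METTL4 cells and 7.97 and 8.70 in control cells. OAS1, an enzyme that activates the RNase L pathway, had 13.05 and 14.9 in RP11-390F4.3 cells, 1.64 and 1.95 in METTL4 cells and 5.82 and 5.86 in control cells. For these 3 genes METTL4 cells lay below control and RP11-390F4.3 cells above it. IFI44L had 25.7 and 26.6 in RP11-390F4.3 cells, 2.78 and 2.04 in METTL4 cells and 15.2 and 16.01 in control cells. The summed level of the list was 3186 and 3261 in RP11-390F4.3 cells, 2333 and 2498 in control cells and 1555 and 1575 in METTL4 cells. Against control, 21 of 43 were above control in RP11-390F4.3 cells and 33 of 43 were below it in METTL4 cells.

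The promoters of IFI6 and IFI44L are shown because most members of this list were called in the same direction and interferon genes are known for a shared promoter element, the interferon-stimulated response element, searched here as GAAA, any 2 bases and GAAA on either strand. The sequences are from RefSeq (GRCh38.p14), 250 bases before to 50 after the annotated start, on the strand of the gene, with matches in capitals. IFI6 lies at chr1:27672143-27672442 on the minus strand and holds 3 matches, and IFI44L lies at chr1:78620198-78620497 on the plus strand and holds 2, of which the first lie 156 and 164 bases before the start.
IFI6: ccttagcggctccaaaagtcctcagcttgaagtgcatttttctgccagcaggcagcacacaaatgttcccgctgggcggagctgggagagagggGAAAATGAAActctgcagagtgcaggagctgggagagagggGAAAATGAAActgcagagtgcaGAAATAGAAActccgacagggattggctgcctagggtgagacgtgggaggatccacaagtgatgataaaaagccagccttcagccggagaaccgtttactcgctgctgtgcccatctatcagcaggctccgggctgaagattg
IFI44L: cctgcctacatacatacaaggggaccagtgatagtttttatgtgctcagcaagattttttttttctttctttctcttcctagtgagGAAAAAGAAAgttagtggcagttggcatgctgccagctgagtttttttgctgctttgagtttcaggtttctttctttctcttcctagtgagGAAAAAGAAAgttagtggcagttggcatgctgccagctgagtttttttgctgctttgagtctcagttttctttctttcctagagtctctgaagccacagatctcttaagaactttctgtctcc

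Of 34 promoters found for the list, 22 (64.7%) held the element, against 2.72% of the 10644 promoters found for all genes tested. It was in 3.80% of the 2079 promoters of genes higher in RP11-390F4.3 cells and in 2.0% of the 1302 promoters of genes higher in METTL4 cells. Members of the list are counted in the former share, so it is no separate observation. The hypoxia response element, searched as ACGTG or GCGTG on either strand, was in 57.3% of the former promoters, 66.1% of the latter and 63.3% of all. In the hypoxia response list 20 of the 24 promoters found held it (83.3%). A match of letters is a description of the sequence and not a binding site.

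The same direction held for antigen presentation. Of 17 genes of MHC class I presentation, 12 were higher in RP11-390F4.3 cells and none in METTL4 cells (median 0.73). HLA-B, a classical class I heavy chain, had 103 and 101 in RP11-390F4.3 cells, 24.0 and 23.2 in METTL4 cells and 31.4 and 27.2 in control cells, and its reads can be shared with other HLA genes. HLA-F, a non-classical chain, had 11.6 and 11.8 in RP11-390F4.3 cells, 2.93 and 2.67 in METTL4 cells and 5.87 and 5.63 in control cells. NLRC5, the transactivator of class I genes, had 10.2 and 10.7 in METTL4 cells, below 24.1 and 25.9 in RP11-390F4.3 cells and 24.9 and 29.5 in control cells (1.18 ± 0.09, adjusted p = 1.31e-07, limma).

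Inflammatory and NF-κB feedback genes followed, with 18 of 24 higher in RP11-390F4.3 cells and 1, IL6, higher in METTL4 cells, and a median of 0.83. Against control, 17 of the 24 were higher and 1 lower in RP11-390F4.3 cells (median 0.90). In METTL4 cells 8 were higher than control and 8 lower (median -0.19). NFKBIZ, an atypical IκB protein, had 84.8 and 81.6 in RP11-390F4.3 cells, 22.4 and 21.8 in METTL4 cells and 36.6 and 33.8 in control cells. ICAM1, a leukocyte adhesion molecule, had 59.7 and 63.9 in RP11-390F4.3 cells, 17.9 and 17.0 in METTL4 cells and 21.4 and 23.5 in control cells. LCN2, which encodes the siderophore-binding lipocalin 2, had 6.12 and 7.62 in RP11-390F4.3 cells, 0.398 and 0.498 in METTL4 cells and 2.77 and 3.21 in control cells. IL6 had 2.98 and 2.58 in METTL4 cells and 1.01 and 1.37 in RP11-390F4.3 cells and fell under 1.3-fold with a pseudocount of 5. Of 13 complement and coagulation genes, 7 were higher in RP11-390F4.3 cells. These included the classical pathway proteases C1S (13.05 and 14.6 against 2.44 and 2.08, control 12.1 and 14.9) and C1R (5.19 and 5.01 against 0.298 and 0.408, control 3.67 and 3.77) and the C3b inhibitor CFI (26.5 and 26.0 against 6.16 and 7.25, control 30.1 and 27.5). The 2 higher in METTL4 cells were the coagulation genes TFPI2, a protease inhibitor (78.9 and 75.5 against 47.4 and 40.5, control 44.3 and 38.2), and F3, tissue factor (2405 and 2405 against 1845 and 1682, control 1557 and 1489).

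Lipid synthesis genes separated the groups through METTL4 cells. Of 24 listed cholesterol genes, 19 were higher in RP11-390F4.3 cells and none in METTL4 cells, with a median of 0.85. Against control, 23 of 24 were lower in METTL4 cells (median -0.94), whereas in RP11-390F4.3 cells 2 were higher and 5 lower (median -0.20). INSIG1, the sterol-sensing brake on SREBP processing, had 29.3 and 31.3 in METTL4 cells, 141 and 128 in RP11-390F4.3 cells and 143 and 135 in control cells (2.11 ± 0.06, adjusted p = 1.51e-11, limma). STARD4, a cholesterol carrier, had 34.2 and 36.2 in METTL4 cells, 143 and 139 in RP11-390F4.3 cells and 103 and 92.2 in control cells. In both genes the METTL4 libraries were the lowest.

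Fatty acid synthesis genes gave 11 of 15 higher in RP11-390F4.3 cells, none higher in METTL4 cells and a median of 0.56. Besides SCD, FASN, the fatty acid synthase, had 634 and 588 in METTL4 cells, 1280 and 1397 in RP11-390F4.3 cells and 1325 and 1303 in control cells. SREBF1, which encodes the transcription factor SREBP-1, had 57.7 and 50.5 in METTL4 cells, 159 and 170.1 in RP11-390F4.3 cells and 199 and 184 in control cells (1.59 ± 0.06, adjusted p = 2.95e-10, limma). In both genes, the METTL4 libraries lay below the other 4. Against control, 13 of 15 were lower in METTL4 cells and 4 in RP11-390F4.3 cells. The sterol element TCACNCCAC was in 1 of the 18 cholesterol gene promoters found (5.56%) and in 1.11% of all.

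Transcription factors that regulate EMT did not move together. The list held those the study names, with SNAI2 and TWIST2 added, and of its members ZEB2 did not pass the filter on low values and KLF8 was not analysed here. Of 7 tested, 1 was higher in RP11-390F4.3 cells (14.3%), 2 were higher in METTL4 cells (28.6%) and 4 were not called. Over all genes the shares were 18.4% and 13.3%, and with 7 genes these counts say little about the list. SNAI1, which encodes Snail, was low, with 2.98 and 3.04 in RP11-390F4.3 cells, 1.14 and 0.952 in METTL4 cells and 1.34 and 1.16 in control cells (0.97 ± 0.14, adjusted p = 7.00e-05, limma). SNAI2, which encodes Slug, had 73.6 and 69.8 in METTL4 cells, 41.4 and 39.1 in RP11-390F4.3 cells and 31.0 and 29.5 in control cells, and was higher in METTL4 cells (-0.82 ± 0.06, adjusted p = 9.97e-08, limma). ZEB1, a repressor of E-cadherin, had 4.42 and 4.03 in METTL4 cells, 1.89 and 1.71 in RP11-390F4.3 cells and 1.48 and 1.303 in control cells (-0.90 ± 0.14, adjusted p = 9.85e-05, limma). SNAI1 and ZEB1 thus sat at opposite ends of the list.

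The other 4 overlapped between the groups and were not called. TWIST1 had 4.91 and 5.18 in RP11-390F4.3 cells, 5.17 and 4.35 in METTL4 cells and 2.62 and 3.26 in control cells, a difference of 0.07 ± 0.14. TWIST2 had 5.19 and 5.35 in RP11-390F4.3 cells, 5.86 and 5.08 in METTL4 cells and 3.01 and 2.98 in control cells, a difference of -0.04 ± 0.12. Both TWIST genes were above control in the 2 groups, whereas SOX2 was below it. SOX2, a stemness factor, had 4.27 and 3.77 in RP11-390F4.3 cells, 3.78 and 4.44 in METTL4 cells and 9.59 and 6.65 in control cells (-0.02 ± 0.15). TCF3, which encodes E12 and E47, had 71.8 and 75.1 in RP11-390F4.3 cells, 77.9 and 70.5 in METTL4 cells and 69.2 and 64.8 in control cells (-0.01 ± 0.06). The sign of these differences changed with the library left out or the scaling, and a p that misses the threshold does not show that the groups are alike.

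Epithelial genes were called in 1 direction. Of 23 epithelial adhesion genes, 13 were higher in RP11-390F4.3 cells and none in METTL4 cells, with a median of 0.46. With libraries centred on their median the counts were 11 and 1, and without replicate 2 of the RP11-390F4.3 cells they were 12 and 1. CLDN1, a tight junction claudin, had 14.6 and 15.6 in METTL4 cells, 65.9 and 68.6 in RP11-390F4.3 cells and 63.5 and 63.5 in control cells (2.08 ± 0.06, adjusted p = 1.86e-11, limma). CLDN4 had 13.2 and 10.6 in METTL4 cells, 37.01 and 39.5 in RP11-390F4.3 cells and 30.6 and 33.2 in control cells. CDH1, which encodes E-cadherin, had 143 and 137 in METTL4 cells, 247 and 259 in RP11-390F4.3 cells and 237 and 243 in control cells (0.85 ± 0.05, adjusted p = 4.86e-09, limma). For all 3 genes METTL4 cells were below control and RP11-390F4.3 cells were slightly above it. GRHL1, a grainyhead factor of epithelium, was instead raised above control in RP11-390F4.3 cells (17.2 and 19.6, against 5.52 and 5.44 and a control of 8.44 and 9.03), as was the mucin MUC1 (6.85 and 7.45 in RP11-390F4.3 cells, 2.49 and 2.63 in METTL4 cells and 4.34 and 4.42 in control cells).

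Desmosome and squamous differentiation genes went the same way. Of 10 desmosome genes 4 were higher in RP11-390F4.3 cells and none in METTL4 cells. They were PKP1, plakophilin 1 (43.7 and 47.9 against 18.4 and 18.8, control 38.4 and 39.1), DSC2, DSG3 and JUP, with differences of 1.25, 0.79, 0.73 and 0.72. Of 12 cornification genes, 11 were higher in RP11-390F4.3 cells (median 0.84), led by the cross-linking enzyme TGM1 (14.8 and 17.7 against 3.83 and 4.94, control 8.06 and 10.2) and filaggrin, FLG (5.80 and 5.87 against 1.94 and 1.18, control 2.96 and 3.12). Of 11 S100 genes 8 were higher, with S100A9, a calprotectin subunit, at 6.0 and 7.67 against 0.497 and 0.498 (control 1.76 and 2.51) and S100A14 at 134 and 133 against 59.6 and 59.0 (control 68.9 and 74.1).

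Keratins, the intermediate filaments of epithelium, split, with 6 of 16 higher in RP11-390F4.3 cells and 4 higher in METTL4 cells. KRT17 had 236 and 237 in RP11-390F4.3 cells, 109 and 89.9 in METTL4 cells and 133 and 133 in control cells. KRT6A had 73.5 and 80.4 in RP11-390F4.3 cells, 38.3 and 42.4 in METTL4 cells and 28.1 and 25.9 in control cells. KRT80 went the other way with 33.0 and 41.2 in RP11-390F4.3 cells, 76.9 and 72.5 in METTL4 cells and 82.3 and 83.4 in control cells, and KRT15, a basal keratin, with 58.2 and 52.6 in RP11-390F4.3 cells, 90.9 and 95.6 in METTL4 cells and 117 and 120.2 in control cells. KRT4, a keratin of internal stratified epithelium, was below control in both groups, with 2.78 and 1.84 in RP11-390F4.3 cells, 4.08 and 3.94 in METTL4 cells and 31.9 and 36.1 in control cells.

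Mesenchymal genes were divided between the groups. Of 12 tested, 4 were higher in RP11-390F4.3 cells, namely LOX, COL1A1, ACTA2 and S100A4, and 3 in METTL4 cells, namely CDH2, CDH11 and MMP2, with a median of 0.17. S100A4 lost its call without replicate 1 of the RP11-390F4.3 cells (adjusted p = 0.0646, limma) and without replicate 2 of the METTL4 cells (adjusted p = 0.148, limma). CDH2, which encodes N-cadherin, had 21.4 and 20.2 in METTL4 cells, 8.13 and 6.98 in RP11-390F4.3 cells and 14.6 and 14.1 in control cells (-1.35 ± 0.09, adjusted p = 6.30e-08, limma). It was above control in METTL4 cells and below it in RP11-390F4.3 cells. CDH11, a mesenchymal cadherin, had 9.64 and 8.11 in METTL4 cells, 3.34 and 4.45 in RP11-390F4.3 cells and 3.91 and 2.93 in control cells. LOX, a collagen cross-linking enzyme that is also on the hypoxia list, had 8.13 and 9.04 in RP11-390F4.3 cells, 3.48 and 2.81 in METTL4 cells and 2.58 and 2.09 in control cells. VIM and FN1, the vimentin and fibronectin genes, were not called, with differences of 0.03 ± 0.16 and 0.29 ± 0.09.

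Matrix protease genes were called in both directions. Of 15 proteases and inhibitors, 7 were higher in METTL4 cells and 5 in RP11-390F4.3 cells. MMP3, stromelysin 1, had 10.1 and 8.65 in METTL4 cells, 2.58 and 2.96 in RP11-390F4.3 cells and 0.620 and 1.02 in control cells. MMP1, interstitial collagenase, had 124 and 116 in METTL4 cells, 73.4 and 68.3 in RP11-390F4.3 cells and 38.4 and 33.3 in control cells. SERPINE2, protease nexin 1, had 58.7 and 58.1 in METTL4 cells, 25.6 and 22.0 in RP11-390F4.3 cells and 22.5 and 21.8 in control cells. MMP1 and MMP3 were above control in both groups. PLAT, the tissue plasminogen activator, had 5.62 and 6.53 in METTL4 cells, 15.4 and 13.9 in RP11-390F4.3 cells and 19.8 and 17.8 in control cells. Of 18 collagens and laminins 3 (16.7%), COL12A1, COL4A1 and COL4A2, were higher in METTL4 cells. Another 4 (22.2%), LAMA4, LAMB2, COL7A1 and COL4A6, were higher in RP11-390F4.3 cells. These shares are near those over all genes, 13.3% and 18.4%. COL4A6 lost its call without replicate 1 of the METTL4 cells (adjusted p = 0.0579, limma) and fell under 1.3-fold with libraries centred on their median. The basement membrane chain COL4A1 was near control in RP11-390F4.3 cells, at 22.8 and 23.3 against 36.8 and 39.5 in METTL4 cells and 24.2 and 23.4 in control cells.

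Receptors and signalling lists were mixed. Among 11 integrins, 4 were higher in RP11-390F4.3 cells (ITGA5, ITGA2, ITGB6 and ITGB5) and none in METTL4 cells. ITGB5 fell under 1.3-fold without replicate 2 of the RP11-390F4.3 cells and with libraries centred on their median, which left 3. ITGA5, the fibronectin receptor subunit, had 111 and 126 in RP11-390F4.3 cells, 35.6 and 35.1 in METTL4 cells and 26.3 and 26.3 in control cells (1.71 ± 0.06, adjusted p = 1.59e-10, limma). ITGA2 had 238 and 239 in RP11-390F4.3 cells, 145 and 137 in METTL4 cells and 79.8 and 79.6 in control cells. In the EGFR family, 6 of 11 were higher in RP11-390F4.3 cells, among them the ligands AREG and HBEGF and the feedback inhibitor ERRFI1 (127 and 125 against 57.9 and 58.4, control 35.0 and 32.7). The receptor EGFR itself was higher in METTL4 cells (1479 and 1496 against 1046 and 979, control 1113 and 1113), as was the ligand NRG1 (87.9 and 90.6 against 46.4 and 48.4, control 45.4 and 42.2).

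In the TGF-β list 5 of 23 were higher in RP11-390F4.3 cells (21.7%) and 4 in METTL4 cells (17.4%), near the shares over all genes, 18.4% and 13.3%. TGFB2 and TGFBR2, both on the METTL4 side, lost their calls without replicate 2 of the RP11-390F4.3 cells, which left 2, and TGFB2 did so without any 1 of the 4 libraries compared (adjusted p from 0.101 to 0.148, limma). ID1, a BMP target, had 261 and 259.5 in RP11-390F4.3 cells, 83.5 and 82.0 in METTL4 cells and 167 and 152 in control cells, while PMEPA1, a feedback inhibitor of TGF-β signalling, had 26.5 and 24.8 in RP11-390F4.3 cells, 59.2 and 57.1 in METTL4 cells and 21.6 and 18.8 in control cells. In the Notch list 5 of 13 were higher in RP11-390F4.3 cells and 3 in METTL4 cells. Without replicate 2 of the METTL4 cells HES4 and HEYL lost their calls, which left 3 in each direction. NOTCH3 had 34.4 and 43.3 in RP11-390F4.3 cells, 13.97 and 13.1 in METTL4 cells and 56.002 and 60.5 in control cells, and the ligand DLL1 22.6 and 21.0 in RP11-390F4.3 cells, 41.5 and 39.2 in METTL4 cells and 30.1 and 31.7 in control cells. In the Wnt list 4 of 26 were higher in RP11-390F4.3 cells (15.4%) and 6 in METTL4 cells (23.1%). The shares over all genes were 18.4% and 13.3%. Among those higher in METTL4 cells was WNT7A (46.9 and 47.3 in METTL4 cells, 25.1 and 22.3 in RP11-390F4.3 cells and 23.0 and 23.4 in control cells).

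DNA replication genes were the list furthest towards METTL4 cells. Of 34 tested, 20 were higher in METTL4 cells, none was higher in RP11-390F4.3 cells, and the median was -0.46. All 34 differences were below 0, from -1.32 to -0.08. CCNE2, a cyclin of S phase entry, had 27.7 and 27.7 in METTL4 cells, 10.6 and 10.5 in RP11-390F4.3 cells and 14.9 and 16.7 in control cells (-1.32 ± 0.08, adjusted p = 2.30e-08, limma). RRM2, a ribonucleotide reductase subunit, had 209 and 210.2 in METTL4 cells, 119 and 111 in RP11-390F4.3 cells and 146 and 139 in control cells. CDC6, which loads the MCM helicase, had 139 and 140.2 in METTL4 cells, 82.9 and 74.1 in RP11-390F4.3 cells and 123 and 119 in control cells. Of the 34, 15 were below control in RP11-390F4.3 cells and 3 were above it in METTL4 cells, with medians of -0.36 and 0.09.

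The CDC6 promoter is shown as a member of this list with an E2F element, written here as TTTCCCGC or TTTGGCGC on either strand. It lies at chr17:40287629-40287928 on the plus strand (RefSeq, GRCh38.p14), and its match starts at base 8 after the start.
CDC6: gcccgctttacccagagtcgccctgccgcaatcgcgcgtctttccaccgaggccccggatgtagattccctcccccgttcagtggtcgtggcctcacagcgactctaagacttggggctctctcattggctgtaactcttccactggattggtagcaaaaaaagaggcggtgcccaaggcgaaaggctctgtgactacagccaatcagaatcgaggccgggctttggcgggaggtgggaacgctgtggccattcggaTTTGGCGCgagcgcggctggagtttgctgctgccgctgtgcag

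Such an element was in 16 of the 29 promoters found for the list (55.2%), in 3.69% of all promoters, in 5.91% of those of genes higher in METTL4 cells and in 2.31% of those of genes higher in RP11-390F4.3 cells. Members of the list are counted in the share of genes higher in METTL4 cells. Mitosis genes differed less, with 2 of 34 higher in METTL4 cells, MKI67 (1277 and 1318 against 878 and 940.2, control 1304 and 1322) and KIF23, and none higher in RP11-390F4.3 cells. Of 18 histone genes 4 were higher in RP11-390F4.3 cells (22.2%, against 18.4% of all genes), H1-2, H1-3, H1-4 and H2AC20. The linker histone H1-2 was at 469 and 494 against 280.2 and 299 (control 304 and 351). H1-4 and H2AC20 fell under 1.3-fold without replicate 2 of the RP11-390F4.3 cells, which left 2 genes and moved the median of the list from 0.08 to -0.015. Of 18 p53 target genes 12 were higher in RP11-390F4.3 cells and 2 in METTL4 cells. GDF15, a stress cytokine, had 31.5 and 31.5 in RP11-390F4.3 cells, 6.36 and 5.48 in METTL4 cells and 23.3 and 22.8 in control cells.

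The cytosolic ribosomal protein and respiratory chain lists barely separated the groups. Of 66 cytosolic ribosomal protein genes 1 was called in each direction, RPL13 higher in RP11-390F4.3 cells (0.42) and RPS10 higher in METTL4 cells (-0.54). Against control, 34 of the 66 were higher and 1 lower in RP11-390F4.3 cells, and 3 were higher and 0 lower in METTL4 cells, with medians of 0.38 and 0.24. RPL13 fell under 1.3-fold with libraries centred on their median, and RPS10 lost its call without replicate 2 of the RP11-390F4.3 cells (adjusted p = 0.0550, limma). Of 54 respiratory chain subunit genes 1, NDUFC2, was higher in METTL4 cells (-0.56), and it lost its call without replicate 2 of the RP11-390F4.3 or of the METTL4 cells. With single libraries left out this list had 0 to 4 genes higher in METTL4 cells and 0 to 2 higher in RP11-390F4.3 cells. Among the 13 mitochondrially encoded mRNAs 4 were higher in METTL4 cells, MT-CYB, MT-ND3, MT-ATP8 and MT-ND5, with MT-CYB at 2416 and 2108 against 1261 and 1463 and a control of 2824 and 2504. The summed level of the 13 was 33253 and 38206 in RP11-390F4.3 cells and 41358 and 38009 in METTL4 cells, and these ranges overlap. MT-ND5 and MT-ATP8 lost their calls when single libraries were left out, and without replicate 1 of the METTL4 cells 2 of the 4 were called.

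Of 22 genes of adenine methylation 5 were higher in METTL4 cells (22.7%), against 13.3% of all genes. One of these is METTL4 itself, which was overexpressed there by design. METTL3, the catalytic subunit of the mRNA m6A writer, was higher in METTL4 cells (64.5 and 61.8 against 44.1 and 43.9, control 62.3 and 63.5), where it was near control. The m6A readers YTHDF1 and YTHDF3 and the methyltransferase N6AMT1 were also higher there, with log2 differences of -0.50, -0.45 and -0.42. PCIF1, the cap adenosine methyltransferase, was higher in RP11-390F4.3 cells by 0.46. With replicate 2 of the RP11-390F4.3 cells left out, YTHDF3, N6AMT1 and PCIF1 lost their calls, which left 3 genes higher in METTL4 cells and 0 in RP11-390F4.3 cells, and PCIF1 also lost its call without replicate 2 of the METTL4 cells and with libraries centred on their median. Of 17 proteins of the U2 snRNP, whose RNA METTL4 is known to methylate, 1 was called, PHF5A (149 and 154 in METTL4 cells, 117 and 101 in RP11-390F4.3 cells and 112 and 117 in control cells), and it lost its call without replicate 2 of the RP11-390F4.3 cells, while without each of the other libraries of the 2 groups the list had 2 or 3 genes higher in METTL4 cells.

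Other lncRNAs were called in both directions. Of 30 cancer-related and host lncRNAs, 6 were higher in RP11-390F4.3 cells (20%) and 11 in METTL4 cells (36.7%). Over all genes the shares were 18.4% and 13.3%, so the first share is near that of all genes. NEAT1, the scaffold of paraspeckles, had 4088 and 4008 in RP11-390F4.3 cells, 2185 and 2246 in METTL4 cells and 4766 and 4190 in control cells (0.87 ± 0.07, adjusted p = 1.27e-07, limma). H19 had 249 and 247 in RP11-390F4.3 cells, 91.2 and 79.4 in METTL4 cells and 154 and 141 in control cells. MIR210HG, the host of the hypoxia-induced miR-210, had 13.1 and 14.8 in RP11-390F4.3 cells, 6.76 and 5.53 in METTL4 cells and 2.05 and 2.14 in control cells. LUCAT1 rose in RP11-390F4.3 cells alone (8.05 and 8.10, against 1.39 and 1.22 and a control of 0.859 and 0.884). The METTL4 side held snoRNA host genes such as SNHG7 (77.4 and 67.5 against 48.4 and 39.8, control 66.3 and 67.6), SNHG12 and SNHG17, and DANCR (40.6 and 39.8 against 20.4 and 19.3, control 33.8 and 32.7). Over all genes, lncRNAs were called higher in METTL4 cells in 20.2% of 1558 and in RP11-390F4.3 cells in 14.7%, and protein-coding genes in 11.8% and 20.3% of 12286.

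Amino acid and stress genes were called in both directions. Of 16 amino acid transporters 6 were higher in METTL4 cells (37.5%) and 3 in RP11-390F4.3 cells (18.75%). Over all genes the shares were 13.3% and 18.4%, so the second share is near that of all genes. SLC7A5 and SLC3A2, which form the large neutral amino acid transporter, were both lower in RP11-390F4.3 cells than in the other groups. SLC7A5 had 1053 and 1035 in RP11-390F4.3 cells, 1673 and 1580 in METTL4 cells and 1784 and 1713 in control cells and SLC3A2 280.0 and 259.7 in RP11-390F4.3 cells, 400.4 and 414 in METTL4 cells and 406 and 444 in control cells. SLC38A2, a system A transporter, was higher in RP11-390F4.3 cells (875 and 823 against 525 and 522, control 531 and 479.5). The integrated stress and unfolded protein response list had 5 of 24 called in each direction (20.8%), against 18.4% and 13.3% of all genes. Of 27 NRF2 targets 9 were higher in RP11-390F4.3 cells and none in METTL4 cells, led by AKR1C1 (13.7 and 15.5 against 4.77 and 4.85, control 16.3 and 18.1), an aldo-keto reductase whose reads can be shared with AKR1C2 and AKR1C3. With libraries centred on their median the counts were 7 and 1. Of 8 metallothionein and zinc transport genes 2 (25%) were called in each direction. With 8 genes these counts say little about the list. The zinc exporter SLC30A1 had 58.0 and 59.3 in METTL4 cells, 27.2 and 26.2 in RP11-390F4.3 cells and 47.3 and 37.7 in control cells. On the RP11-390F4.3 side the 2 genes called were MT1F and SLC39A10. MT1F lost its call without either RP11-390F4.3 library or replicate 2 of the METTL4 cells and SLC39A10 with libraries centred on their median, which left 1 in each case.

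**Figure D3:**
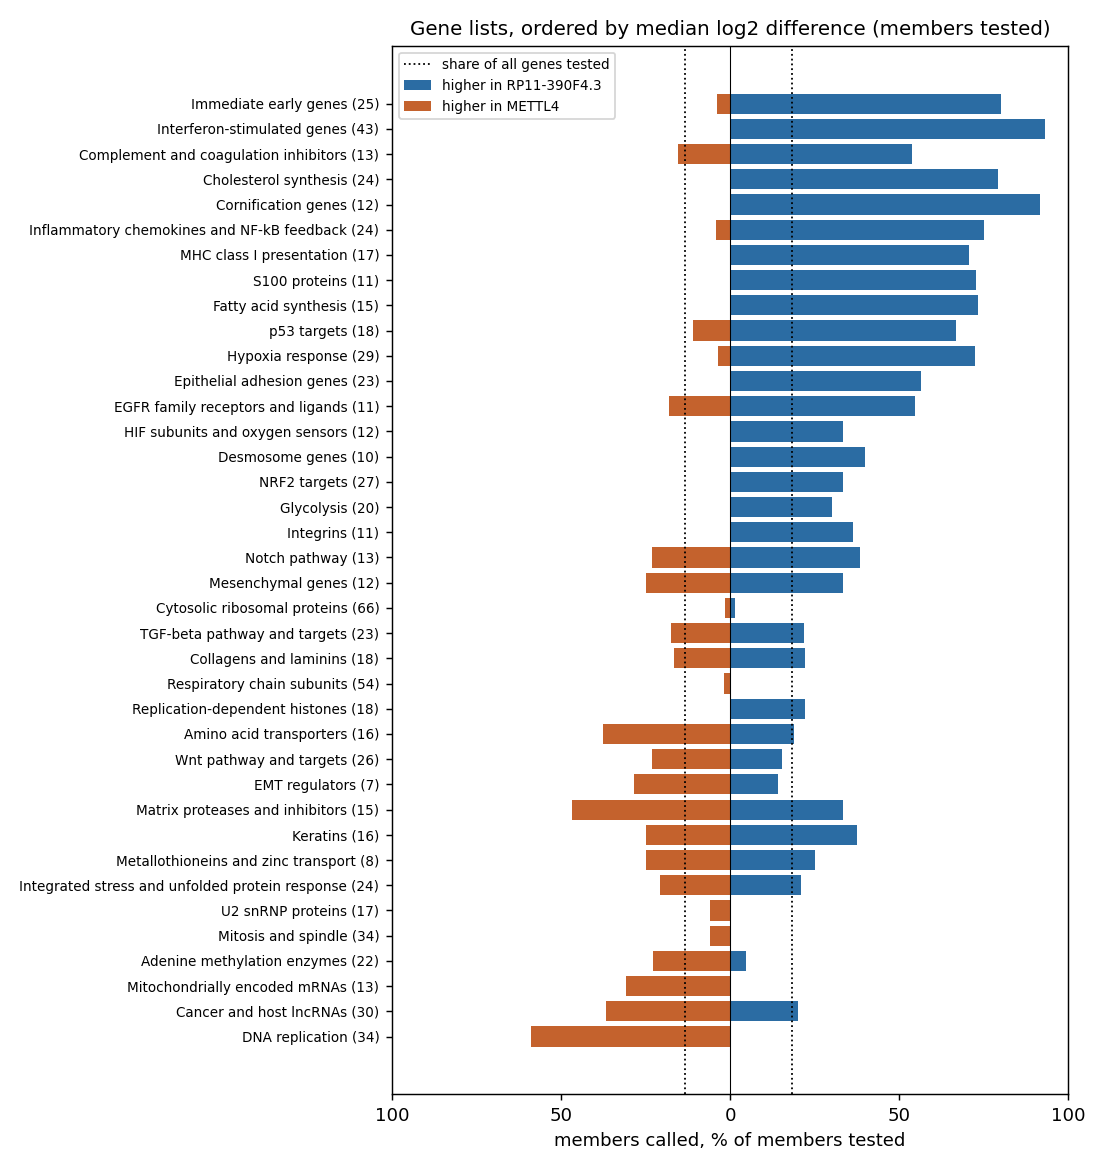
Share of the members tested that were higher in RP11-390F4.3 cells (blue, right) or in METTL4 cells (orange, left) for 38 gene lists, ordered by median log2 difference, with the number tested in brackets and dotted lines at the shares over all genes, 18.4% and 13.3%. Immediate early and interferon-stimulated genes are at the top and DNA replication genes at the bottom.

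The separate hypoxia libraries also gave a reading of all genes that separated the groups. The METTL4 and RP11-390F4.3 libraries chose the genes and had no part in the hypoxia values. Called members of the hypoxia response list are counted among these genes. Of the 2813 genes higher in RP11-390F4.3 cells that were also tested there, 23.0% rose and 7.36% fell under hypoxia, with a median of 0.14. Of the 2045 genes higher in METTL4 cells, 6.26% rose and 18.9% fell, with a median of -0.14. Over the 15482 genes tested in both tables, 9.84% rose and 10.0% fell. When each hypoxia or normoxia library was left out in turn, fewer genes passed: 8.07% to 10.5% of the first group rose, against 2.71% to 3.84% of all genes, and the medians kept their sign. In that table breast or luminal markers summed to 1609 and 1305 in normoxia and to 560 and 526 under hypoxia. Normoxia replicate 1 was high in the same luminal genes, with GREB1 at 36.9 against 1.03 in replicate 2 and GATA3 at 41.1 against 2.19. Under hypoxia GREB1 was at 0.854 and 1.00 and GATA3 at 3.19 and 3.15. Without normoxia replicate 1 the 2 medians were 0.16 and -0.16. The part of these markers in these shares was not tested. The libraries labelled METTL4-si in that table had METTL4 at 24.2 and 27.1 against 26.6 and 25.3 with Scr-si under hypoxia, and these ranges overlap, so no direction was drawn from them.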

How the data were processed

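RNA was depleted of ribosomal RNA, made into libraries (Kapa HyperPrep, RiboErase) and read from both ends. Per the labels, the authors used Trim Galore, HISAT2 on hg19, HTSeq and edgeR, whose versions are not given in the sources used here. The deposited values are a normalised signal, TMM-scaled CPM by gene. All values (100%) came out as whole reads within 0.01, and 20257044 to 25410656 reads per library lay on genes, so 3 reads correspond to 0.121 to 0.149. Columns of the RP11-390F4.3 cells carry another name and were assigned by elimination. Columns of the authors' own comparisons (fold changes, p-values), the BFTC909 table and the table of METTL4 mutant cells were not used.

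Genes that reached a value of 1 in 2 or more of 6 libraries were fitted by limma 3.58.1 with trend on log2(value + 1) in R 4.3.3, with all 6 libraries sharing the spread, and the 6 FADU knockdown libraries likewise. Calls needed 1.3-fold and an adjusted p under 0.05. The fits were tested on simulated data. Symbols were found for 15225 of 15644 identifiers.

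Genes named are METTL4 and RP11-390F4.3, the 15 largest differences in each direction among called genes with a mean of at least 5 and no overlap, all EMT regulators, and up to 4 called members of each other list in each direction. KDM4C, IGFBP5, SYTL2, ESR1, KRT5, KRT18, VIM, FN1, EPSTI1, IRF1, STAT2, CD14 and the genes that make up small counts were named after their values were seen. The members and lists were chosen with earlier results of these data known. Alternatives were pseudocounts, filters, fits, scaling, edgeR 4.0.16 on whole reads, a replicate block, thresholds and each library left out. Replicate numbers were not taken as pairs. Some genes are not reported here.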

Additional observations from a re-analysis of the deposited data

How the results depend on the processing

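The 2 counts of the direct comparison stayed within 1.5 times of 2876 and 2074 under most alternatives, and no gene called in one direction was called in the other under any. With a pseudocount of 5 they were 1785 and 1149, with a mean of at least 5 the first was 1832, and at 2-fold they were 572 and 103. Against control, a pseudocount of 5 gave 1657 genes higher and 950 lower in RP11-390F4.3 cells and 773 and 848 in METTL4 cells, a mean of at least 5 gave 1195 and 1011 lower in RP11-390F4.3 and METTL4 cells, and 2-fold gave 461 and 62 in RP11-390F4.3 cells and 202 and 204 in METTL4 cells. By construction, the pseudocount of 5 shrinks differences of low values, the mean of at least 5 tests fewer genes and the 2-fold threshold asks for a larger difference. edgeR's quasi-likelihood test on whole reads called 2994 and 2203 genes. Leaving out 1 library gave 2573 to 2895 and 1827 to 2076, where a group of 1 library was assumed to vary like the others. The median hypoxia response of genes higher in RP11-390F4.3 cells was 0.32 at 2-fold.

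The replicate block gave 2910 and 2110 genes. It changed the call of no gene named by the rule, and replicate differences of the 2 groups correlated at -0.063, so the numbers share no more than a number. Among the 217 genes named by the rule, 177 of 3647 values under an alternative lost their call, 114 of them at 2-fold and 20 with a pseudocount of 5, and 7 changed sign, none of them called. These were TWIST1 with centred libraries (-0.0098) and without METTL4 replicate 2 (-0.029), TCF3 without RP11-390F4.3 replicate 1 (0.019) and METTL4 replicate 1 (0.057), SOX2 without RP11-390F4.3 replicate 2 (0.047) and METTL4 replicate 2 (0.069), and TWIST2 without METTL4 replicate 1 (0.046). With single libraries left out, these differences ranged from -0.029 to 0.18 for TWIST1, from -0.084 to 0.057 for TCF3, from -0.12 to 0.069 for SOX2 and from -0.13 to 0.046 for TWIST2. The number of reads, with 1 read worth 0.0403 to 0.0497, limits what can be said of genes with values near 1.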

Other observations

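Zinc-finger genes of the ZNF series, a group chosen after the data were seen, lay towards METTL4 cells. Of 436 tested, 103 (23.6%) were higher in METTL4 cells and 39 in RP11-390F4.3 cells, with a median of -0.16, against 12.96% and a median of 0.0048 over the 15208 other genes. Their median against control was -0.14 in RP11-390F4.3 cells and 0.019 in METTL4 cells. In windows of 40 neighbouring genes with a mean of at least 5, the end of chromosome 19 (chr19:57752000-59116590, GRCh37), which is rich in such genes, had a median of -0.36.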
